A study of Rattus norvegicus with 16 samples.

Results

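Type IV collagen is described here through the 6 genes that encode its chains, Col4a1 to Col4a6, measured in isolated glomeruli. The animals were 16 male Wistar rats of about 175 g. The 6 chains were taken by gene name from a table of 13222 genes, and all 6 were present. Of the 16 rats, 4 were healthy controls and 12 had received puromycin aminonucleoside (PAN) intravenously. This compound is toxic to podocytes, the epithelial cells on the outside of the glomerular filter, and produces nephrotic syndrome in rats. Of the injured rats, 4 are labelled PAN alone, 4 PAN with pioglitazone, an agonist of the nuclear receptor PPARγ, and 4 PAN with GQ-16, a partial agonist of the same receptor. Drugs or a vehicle were gavaged daily, and glomeruli were isolated by sieving on day 11. The labels give no dose, do not say which animals received vehicle, and name no time point other than day 11. Each group is 4 rats, and sieved glomeruli hold podocytes, endothelial, mesangial and some other cells, so a lower level can be fewer cells of a type or less RNA per cell, which cannot be told apart here.

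Collagen IV chains assemble as trimers. The α1 and α2 chains form the α1α1α2 trimer, which is made by mesangial and endothelial cells and is found in basement membranes throughout the body and in the mesangial matrix. The α3, α4 and α5 chains form the α3α4α5 trimer, which podocytes secrete and which makes up the mature network of the glomerular basement membrane. Inherited loss of that network causes Alport syndrome. The α6 chain joins α5 in the α5α5α6 trimer, which is a component of Bowman's capsule. Trimers are joined to each other through their ends by a peroxidase and by lysyl oxidase-like enzymes, and cells bind them through integrins and discoidin domain receptors.

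The 6 genes lie in 3 head-to-head pairs, and sequences of the pairs that lie closest together are shown because the members of a pair are compared below. In the RefSeq annotation of assembly GRCr8, which is not the build the authors used, Col4a1 on the plus strand and Col4a2 on the minus strand of chromosome 16 start 76 bases apart. The whole stretch between them, chr16:84885521-84885596 on the plus strand, is printed with the motif GGGCGG, here on the other strand as CCGCCC, in capitals.
Col4a1 to Col4a2 interval: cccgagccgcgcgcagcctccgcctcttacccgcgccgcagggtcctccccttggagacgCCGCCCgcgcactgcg
Over windows of that length just upstream of 33465 annotated starts, 18.1% held GGGCGG on either strand. The other motifs searched on both strands were the CCAAT box, the TATA box in the form TATAAA, and the homeodomain core TAATTA, and the interval held none of them. Its GC content was 78.9%.

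Col4a3 on the plus strand and Col4a4 on the minus strand of chromosome 9 start 412 bases apart. Their 250-base upstream windows, chr9:91323740-91323989 and chr9:91323578-91323827, share 88 bases, which are in capitals in both and read in opposite directions.
Col4a3 upstream: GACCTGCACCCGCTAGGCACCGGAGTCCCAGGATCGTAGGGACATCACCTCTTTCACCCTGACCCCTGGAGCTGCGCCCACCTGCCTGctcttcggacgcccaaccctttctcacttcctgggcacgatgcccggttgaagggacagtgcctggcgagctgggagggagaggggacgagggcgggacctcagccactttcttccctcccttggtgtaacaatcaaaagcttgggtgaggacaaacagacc
Col4a4 upstream: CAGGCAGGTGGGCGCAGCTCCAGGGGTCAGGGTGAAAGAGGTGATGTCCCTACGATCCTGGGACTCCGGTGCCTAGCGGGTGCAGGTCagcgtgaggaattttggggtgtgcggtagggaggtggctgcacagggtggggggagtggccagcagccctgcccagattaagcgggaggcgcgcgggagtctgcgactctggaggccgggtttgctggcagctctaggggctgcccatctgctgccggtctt
The Col4a3 window held 1 GGGCGG and the Col4a4 window held 0, where 30.5% of all 250-base upstream windows held at least 1. Col4a5 and Col4a6 on the X chromosome start 1414 bases apart, and their windows, which share 0 bases, are not printed. A match of letters is a description of the sequence and was not related to any measurement of binding.

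Values are CPM, the reads of a gene scaled to a common library total. Library totals ran from 13351137 to 21977663 reads, and 3 reads correspond to between 0.14 and 0.22 CPM. The libraries stood apart in the share of reads from 21 mitochondrial genes, which was 13.9% to 39.6% in control and 5.98% to 10.8% in PAN. Changes are therefore also given after median-ratio scaling, which moved the all-gene median of the PAN minus control log2 changes from 0.28 to -0.003. Library numbers of 25 or more, taken from the labels, belong to 3 of 4 PAN rats, 1 rat on pioglitazone, 1 on GQ-16 and 0 controls, so that number and PAN are largely confounded. Wherever library number is a covariate below, it was entered as 25 or more against under 25. Markers of podocytes were present in every library, with 17 of 18 listed genes measured and 0 of these without reads. Control rat 1 stood apart from the other controls, with a mean podocyte marker level of 8.45 on the log2 CPM scale against 6.25 to 7.32.

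The injury comparison asked how the α1 and α2 chains and the mature network differed between PAN and healthy glomeruli. Col4a1 and Col4a2 rose together, each to about 2.1-fold and 2.0-fold of control, and no PAN rat overlapped a control rat for either gene, where 22.4% of all genes lay higher in PAN without overlap. Col4a3, Col4a4 and Col4a5 had group means of similar fold above control, 2.3-fold, 2.0-fold and 1.9-fold, but did not pass the adjusted threshold. Col4a6 had a log2 change of 0.11. The number of chains called was 2 of 6 at a limma adjusted p under 0.05, where 21.7% of all genes tested were called higher. After median-ratio scaling the same 2 chains were called, and 7.12% of all genes. The median log2 change over the 6 chains was 1.02, against 0.28 over all genes.

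Col4a1 (ENSRNOG00000016281), which encodes the chain present as 2 copies in the α1α1α2 trimer, had levels of 1465, 1241, 1283 and 1639 CPM in control. In PAN the levels were 3887, 3491, 2455 and 2284 CPM. All 4 PAN rats lay above all 4 controls, and 2 of the PAN rats were well above the others. The change was 1.08 on the log2(CPM + 1) scale (SE 0.22, 95% interval 0.61 to 1.55, limma adjusted p 0.00486), and 0.78 after median-ratio scaling (limma adjusted p 0.0370).

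Col4a2 (ENSRNOG00000023972), which encodes the partner chain, had levels of 856, 740, 758 and 964 CPM in control and 2281, 1960, 1368 and 1327 CPM in PAN. The rats fell in nearly the same order as for Col4a1, and the groups again did not overlap. The change was 1.03 (SE 0.21, 95% interval 0.58 to 1.48, limma adjusted p 0.00486), and 0.73 after median-ratio scaling (limma adjusted p 0.0408). With library number as a covariate the limma adjusted p was 0.0376 for Col4a1 and 0.0443 for Col4a2, where 2.88% of all genes were called higher. With that covariate and median-ratio scaling together, a setting chosen after seeing the data, neither passed, with log2 changes of 0.90 and 0.82 and limma adjusted p of 0.0947 and 0.122.

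Col4a3 (ENSRNOG00000015365) encodes the chain that carries the epitope of Goodpasture antibodies. Its control levels were 774, 179, 225 and 316 CPM, and its PAN levels were 785, 677, 657 and 748 CPM. The 4 PAN rats lay close together, 3 controls lay far below them, and control rat 1 lay within the PAN range. Its PAN minus control difference was 1.18 in log2 (SE 0.47, 95% interval 0.17 to 2.18, limma adjusted p 0.0775).

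Col4a4 (ENSRNOG00000014851), the partner of Col4a3, had control levels of 1543, 467, 645 and 760 CPM and PAN levels of 1742, 1432, 1375 and 1653 CPM. Control rat 1 again lay within the PAN range and the other controls below it. The difference was 1.0 in log2 (SE 0.41, 95% interval 0.14 to 1.86, limma adjusted p 0.0794). Col4a5 (ENSRNOG00000018951), the X-linked chain most often mutated in Alport syndrome, had control levels of 279, 87.1, 91.5 and 123 CPM and PAN levels of 375, 214, 209 and 230 CPM. PAN rat 1 was the highest of both groups, and control rat 1 exceeded the other 3 PAN rats. The difference was 0.95 in log2 (SE 0.43, 95% interval 0.03 to 1.87, limma adjusted p 0.110).

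Calls for the mature network depended on control rat 1. Without it, Col4a3, Col4a4 and Col4a5 had log2 changes of 1.61, 1.33 and 1.32 between PAN and control, with limma adjusted p of 0.0140, 0.0187 and 0.0241, and 5 of 6 chains were called, where the share of all genes called higher in that fit was 36.8%. That rat was also the control with the highest podocyte markers and the lowest mitochondrial share, 13.9%. The podocyte score, the mean log2 level of 17 markers, was higher in PAN than in control by 1.16, and the mean of these 3 chains by 1.05. With the score as covariate, which cannot tell podocyte number from RNA per podocyte, the log2 changes of Col4a3, Col4a4 and Col4a5 were 0.05, 0.08 and -0.08, and those of Col4a1 and Col4a2 were 1.05 and 1.01 (limma adjusted p 0.0176 and 0.0208), where 5.2% of all genes were called higher.

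Col4a6 (ENSRNOG00000056772) was the chain with the fewest reads, 73 to 239 per library. Its control levels were 10.3, 4.33, 5.66 and 6.95 CPM, and its PAN levels were 12.7, 5.67, 6.64 and 5.11 CPM. The 2 groups covered nearly the same range, with replicate 1 the highest in each. The difference was 0.11 in log2 (SE 0.33, 95% interval -0.59 to 0.81, limma adjusted p 0.815), and -0.15 after median-ratio scaling, so no direction is given.

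**Figure D1:**
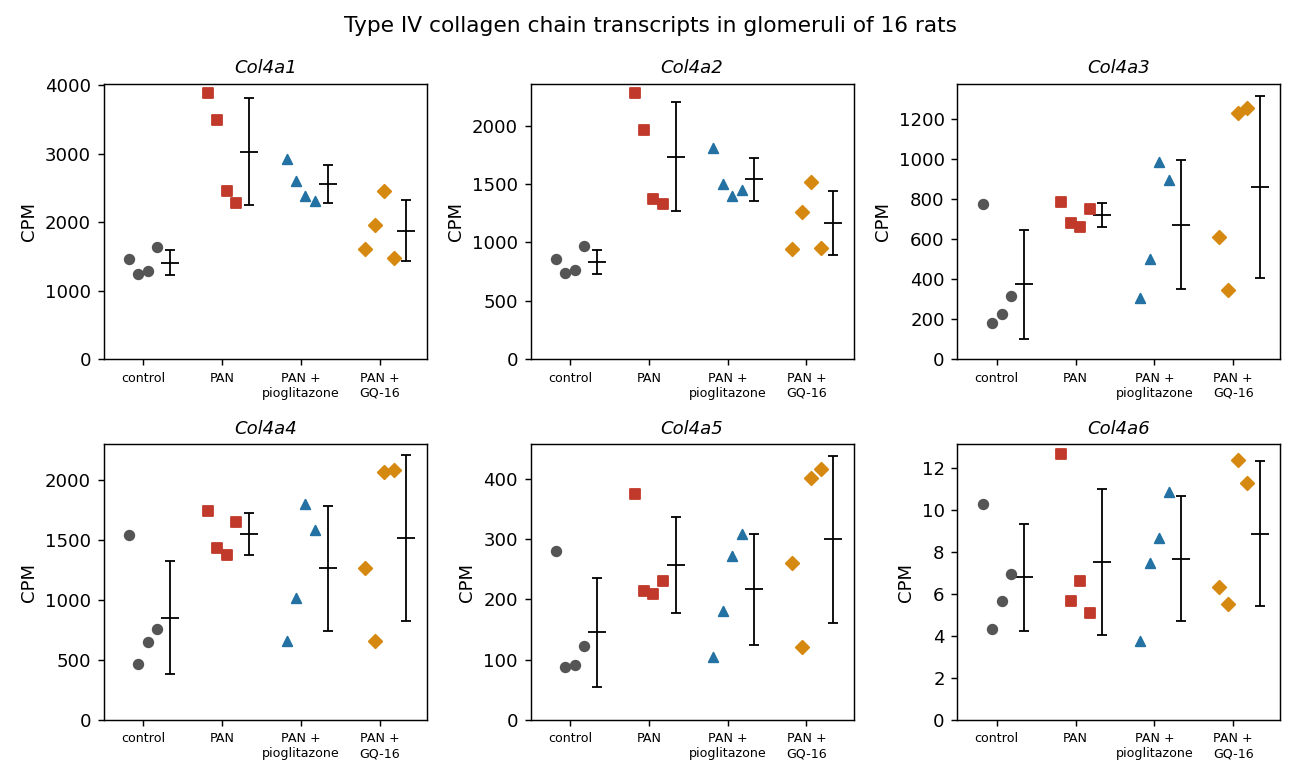
Level of each collagen IV chain in CPM (linear axis from 0) in every rat, by group, with the group mean and SD (n = 4) to the right of the points. For Col4a1 and Col4a2 all PAN and all pioglitazone points lie above all control points, while for Col4a3, Col4a4 and Col4a5 control rat 1 lies within or near the PAN range.

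The next comparisons set each drug against PAN alone and addressed the effect of treatment on the injured glomerulus. Of the 6 chains 0 were called in either comparison by limma, and at an unadjusted p under 0.05 there were 0 with pioglitazone and 2 with GQ-16, where 8.27% of all genes (1094) had such a p for GQ-16. These 2 were Col4a1 and Col4a2, with lower means under GQ-16 that did not hold after adjustment over all genes. The mature chains differed by less than the spread between rats. Across all genes, 0% were called between pioglitazone and PAN (495 genes had an unadjusted p under 0.05), 0.0151% between GQ-16 and PAN, and 0% between the 2 drugs (786 genes had an unadjusted p under 0.05), all in limma.

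With pioglitazone, Col4a1 levels were 2926, 2597, 2382 and 2304 CPM, all within the PAN range. With GQ-16 they were 1601, 1963, 2457 and 1476 CPM, and 3 of these 4 rats lay below every PAN rat. The log2 difference from PAN was -0.22 for pioglitazone (95% interval -0.69 to 0.25, limma adjusted p 0.916). For GQ-16 it was -0.68 (SE 0.22, 95% interval -1.15 to -0.22, unadjusted p 0.0069, limma adjusted p 0.421).

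Col4a2 followed the same pattern. Its levels were 1809, 1501, 1399 and 1451 CPM with pioglitazone and 940, 1261, 1512 and 950 CPM with GQ-16. The difference between GQ-16 and PAN was -0.56 (SE 0.21, 95% interval -1.01 to -0.11, unadjusted p 0.0170, limma adjusted p 0.492), and that between pioglitazone and PAN was -0.14 (95% interval -0.59 to 0.31, limma adjusted p 0.918). In the group means of both genes the order was PAN, then pioglitazone, then GQ-16, then control, and among neighbours in this order none differed at a limma adjusted p under 0.05.

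The mature chains spread widely within both drug groups. Col4a3 levels were 306, 498, 984 and 896 CPM with pioglitazone and 609, 343, 1230 and 1253 CPM with GQ-16, against a PAN range of 657 to 785 CPM. Rats below and above every PAN rat occurred in both drug groups. Col4a4 levels were 661, 1015, 1800 and 1584 CPM with pioglitazone and 1266, 656, 2067 and 2083 CPM with GQ-16. Col4a5 levels were 104, 181, 272 and 309 CPM with pioglitazone and 260, 121, 402 and 416 CPM with GQ-16. The same rats were low for all 3 chains, rats 1 and 2 on pioglitazone and rat 2 on GQ-16. These libraries had the highest mitochondrial shares of their groups, 19.4% and 16.3% on pioglitazone and 31.4% on GQ-16, against 8.77% to 12.7% and 6.76% to 18.4% in the other rats, and the part of this in the levels was not tested. The coefficient of variation of Col4a3 was 8.39% in PAN, against 73.0% in control, 48.0% with pioglitazone and 53.0% with GQ-16. That of control rests largely on control rat 1, at 774 CPM against 179 to 316 CPM in the other controls. Log2 differences from PAN ran from -0.39 to -0.24 over the 3 chains under pioglitazone, and from -0.17 to 0.11 under GQ-16, with limma adjusted p from 0.916 to 0.980. Intervals were wide, as in Col4a3, where that for GQ-16 ran from -0.93 to 1.08.

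Col4a6 levels were 3.75, 7.48, 8.65 and 10.9 CPM with pioglitazone and 6.32, 5.51, 12.4 and 11.3 CPM with GQ-16. They overlapped with those of both other groups, and log2 differences from PAN were 0.03 and 0.22 (limma adjusted p 0.985 and 0.908).

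The 2 compounds were also compared with each other, over 6 chains, although their doses are not given and cannot be called matched. Col4a1 and Col4a2 were lower with GQ-16 by log2 differences of -0.47 (95% interval -0.94 to 0.001, limma adjusted p 0.841) and -0.42 (95% interval -0.87 to 0.02, limma adjusted p 0.870). For Col4a3, Col4a4, Col4a5 and Col4a6 the differences were 0.31, 0.23, 0.43 and 0.19, with a limma adjusted p of 0.999 for each. The interval for Col4a3 ran from -0.69 to 1.32, so both lower and higher levels with GQ-16 lay within it.

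Treated rats were then set against healthy controls. These comparisons share their control rats with the injury comparison, so they are not independent of it. With pioglitazone, 2 of 6 chains were called higher, where 4.7% of all genes were. These were Col4a1, higher by 0.86 in log2 (SE 0.22, limma adjusted p 0.0363), and Col4a2, by 0.89 (SE 0.21, limma adjusted p 0.0274), and neither gene overlapped between the groups, as in 13.1% of all genes. After median-ratio scaling, which called 2.22% of all genes higher, the changes were 0.64 and 0.67 and did not pass (limma adjusted p 0.115 and 0.0901), and both calls were also lost without control rat 2 or 3 or without pioglitazone rat 1, 2 or 4. Without pioglitazone rat 3 only Col4a2 was called. The 4 other chains had log2 changes from 0.13 to 0.94 (limma adjusted p from 0.197 to 0.773).

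With GQ-16, 0 of 6 chains were called against control in limma, and 3 of them, Col4a2, Col4a3 and Col4a5, had an unadjusted p under 0.05, where 0.151% of all genes were called higher and 23.9% had such a p. The log2 changes were 0.39 for Col4a1, 0.47 for Col4a2, 1.25 for Col4a3, 0.83 for Col4a4, 1.06 for Col4a5 and 0.33 for Col4a6, with limma adjusted p from 0.146 to 0.534. Without control rat 1, Col4a3 and Col4a5 were called, with log2 changes of 1.68 and 1.43 and limma adjusted p of 0.0298 and 0.0390, where 11.6% of all genes were called higher in that fit.

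**Figure D2:**
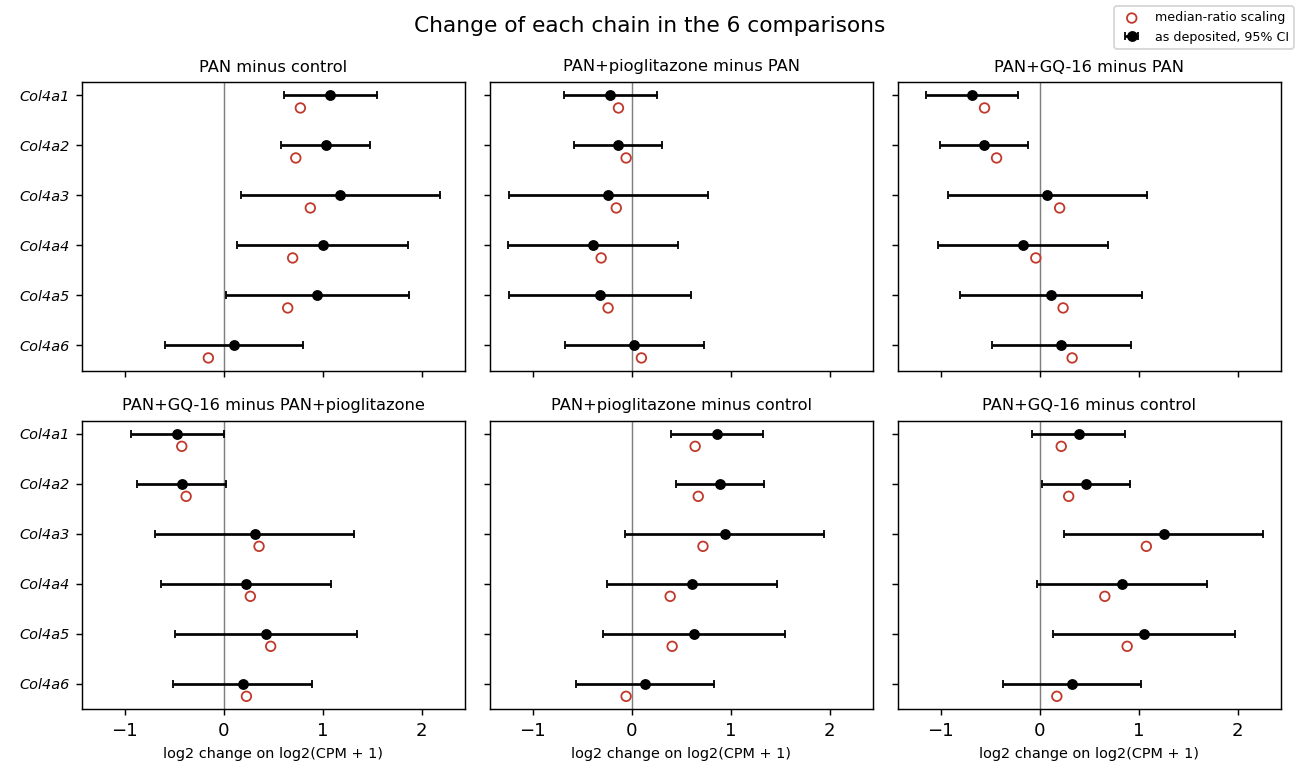
Log2 change of each chain on the log2(CPM + 1) scale in the 6 comparisons, with 95% intervals from limma (filled points) and the value after median-ratio scaling (open points). The Col4a1 and Col4a2 intervals lie above 0 in PAN and in pioglitazone against control, as do those of Col4a3, Col4a4 and Col4a5 in PAN and of Col4a2, Col4a3 and Col4a5 in GQ-16 against control. The intervals of Col4a3, Col4a4 and Col4a5 are the widest in every panel.

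Ratios within a rat do not depend on how libraries are scaled, and they showed which chains kept step. Transcript length differs between chains, so a ratio is read only between rats, not as the amount of one chain over another. The log2 ratio of Col4a1 to Col4a2 ran from 0.64 to 0.84 over all 16 rats, a range of 0.21. That of Col4a3 to Col4a4 had a range of 0.78, and that of Col4a4 to Col4a5 a range of 0.63. By contrast, the log2 ratio of Col4a1 to Col4a3 had a range of 3.02 over the same rats.

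Group means of some ratios also differed. The log2 ratio of Col4a1 to Col4a2 was 0.76 ± 0.01 in control and 0.81 ± 0.04 in PAN, and 0.73 ± 0.06 under pioglitazone and 0.69 ± 0.06 under GQ-16 (SD, n = 4). The PAN and GQ-16 rats did not overlap but nearly met, the lowest PAN rat at 0.7690 and the highest GQ-16 rat at 0.7685. The log2 ratio of Col4a3 to Col4a4 was -1.29 ± 0.22 in control and -1.11 ± 0.04 in PAN, and -0.96 ± 0.13 under pioglitazone and -0.87 ± 0.16 under GQ-16. Here too PAN and GQ-16 did not overlap but nearly met, at -1.066 for the highest PAN rat and -1.057 for the lowest GQ-16 rat. The log2 ratio of Col4a4 to Col4a5 overlapped between all groups, with a PAN minus control difference of 0.05. The log2 ratio of Col4a5 to Col4a6, which had a wider range of 1.48 over all rats, was 4.31 ± 0.33 in control and 5.15 ± 0.27 in PAN, without overlap, a difference of 0.83. These ratios are descriptions and were given no test.

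The α1 and α2 chains were set against the mature network by the mean log2 CPM of Col4a1 and Col4a2 minus that of Col4a3, Col4a4 and Col4a5. This network ratio was 0.69, 2.31, 2.06 and 2.03 in the 4 controls and 1.90, 2.14, 1.67 and 1.40 in the 4 PAN rats. It was 3.06, 2.13, 1.22 and 1.27 with pioglitazone and 1.07, 2.39, 0.94 and 0.21 with GQ-16. All pairs of groups overlapped, and the spread within a group was larger than most differences between groups.

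Group means of the network ratio were 1.77 ± 0.73 in control and 1.78 ± 0.32 in PAN, and 1.92 ± 0.87 under pioglitazone and 1.15 ± 0.91 under GQ-16 (SD, n = 4). PAN differed from control by 0.01, since the mean log2 CPM was higher in PAN by 1.06 for the α1 and α2 chains and by 1.05 for the mature chains. Without control rat 1 the difference was -0.35. The GQ-16 group was lower than PAN by 0.63 and lower than pioglitazone by 0.77, both smaller than the SD within the GQ-16 group. Without 1 rat at a time these differences ran from -1.04 to -0.32 and from -1.18 to -0.39.

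**Figure D3:**
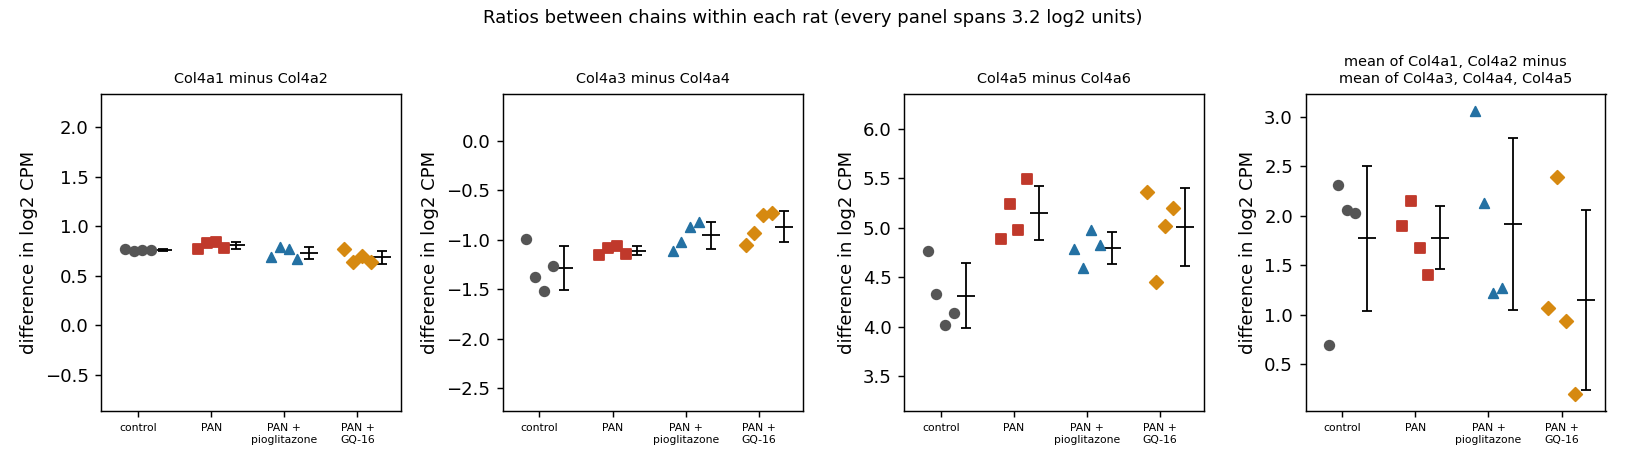
Log2 ratios between chains within each rat, by group, with mean and SD (n = 4); every panel spans the same number of log2 units, so the spread can be compared by eye. Col4a1 to Col4a2 stays between 0.64 and 0.84, while the network ratio in the last panel runs from 0.21 to 3.06.

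Markers of the cell types were read beside the chains, since the 2 networks come from different cells. The mature chains varied with the podocyte markers. The mean log2 CPM of Col4a3, Col4a4 and Col4a5 had a range of 2.41 over the 16 rats and the podocyte score, the mean over 17 markers, a range of 2.71, but their difference had a range of 0.69 and an SD of 0.20. Summed podocyte marker levels were 3270 to 12350 CPM in control and 10723 to 15394 CPM in PAN, and 5826 to 16510 CPM under pioglitazone and 5715 to 19713 CPM under GQ-16. In PAN against control 5 of the 17 markers were called higher and 0 lower, and 2 were higher after median-ratio scaling, against 21.7% and 7.12% of all genes. With library number as covariate 0 of the 17 were called, where 2.88% of all genes were called higher.

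Mesangial and smooth muscle markers were higher in PAN, as Col4a1 and Col4a2 were. The spread of the chains about these markers differed between the groups of 4 rats and was not tested. The mean of Col4a1 and Col4a2 had a range of 1.64 over the 16 rats, and its difference from the mesangial score a range of 1.75 and an SD of 0.48. Within PAN that difference had an SD of 0.061 and a range of 0.14, against 0.46 and 1.001 in control, 0.35 and 0.82 with pioglitazone and 0.68 and 1.64 with GQ-16. On GQ-16, rat 4 had the lowest mean of the 2 chains in its group, 10.2 in log2 CPM, and the highest mesangial score, 6.56. Of 12 mesangial markers measured, 10 were called higher in PAN than in control, 9 after median-ratio scaling and 5 with library number as covariate, against 21.7%, 7.12% and 2.88% of all genes. Their summed level was 617 to 1232 CPM in control and 2237 to 3670 CPM in PAN, and 1750 to 2389 CPM under pioglitazone and 1159 to 2054 CPM under GQ-16. Of 14 endothelial markers, 2 were called higher in PAN, and 1 after median-ratio scaling, shares below or near those of all genes, and their mean log2 level was 8.36 in both groups. Against the endothelial score, the mean of Col4a1 and Col4a2 was higher in PAN than in control by 1.06, and against the mesangial score it was lower by 0.71, in both cases without overlap between the groups. For the mesangial score the groups nearly met, at 4.36 in PAN rat 1 and 4.40 in control rat 1, with the other controls at 4.96 to 5.40. The part of mesangial cell content in the rise of Col4a1 and Col4a2 was not tested.

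Of the other marker lists, 1 of 7 parietal epithelial markers, 1 of 4 interstitial fibroblast markers and 4 of 10 leukocyte markers were called higher in PAN than in control, and 3 of 13 tubule markers were called lower, where 21.7% of all genes were higher and 0.522% lower. With library number as covariate 0 markers of these 4 lists were called, where 2.88% of all genes were called higher. After median-ratio scaling the parietal count was 0, the fibroblast count 1, and 2 tubule markers were lower. Of the 10 leukocyte markers 0 were called higher and 2 lower with that scaling, where 7.12% of all genes were called higher and 1.51% lower. Their median log2 change stayed above 0, at 0.51 as deposited and 0.23 after scaling. No measured marker of any list was without reads. Summed fibroblast markers, the type I and III collagen genes among them, ran from 68.2 to 151 CPM in control and from 166 to 2625 CPM in PAN. The medians were 98.0 and 330 CPM, so the highest PAN value stood far above the middle of its group.

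**Figure D4:**
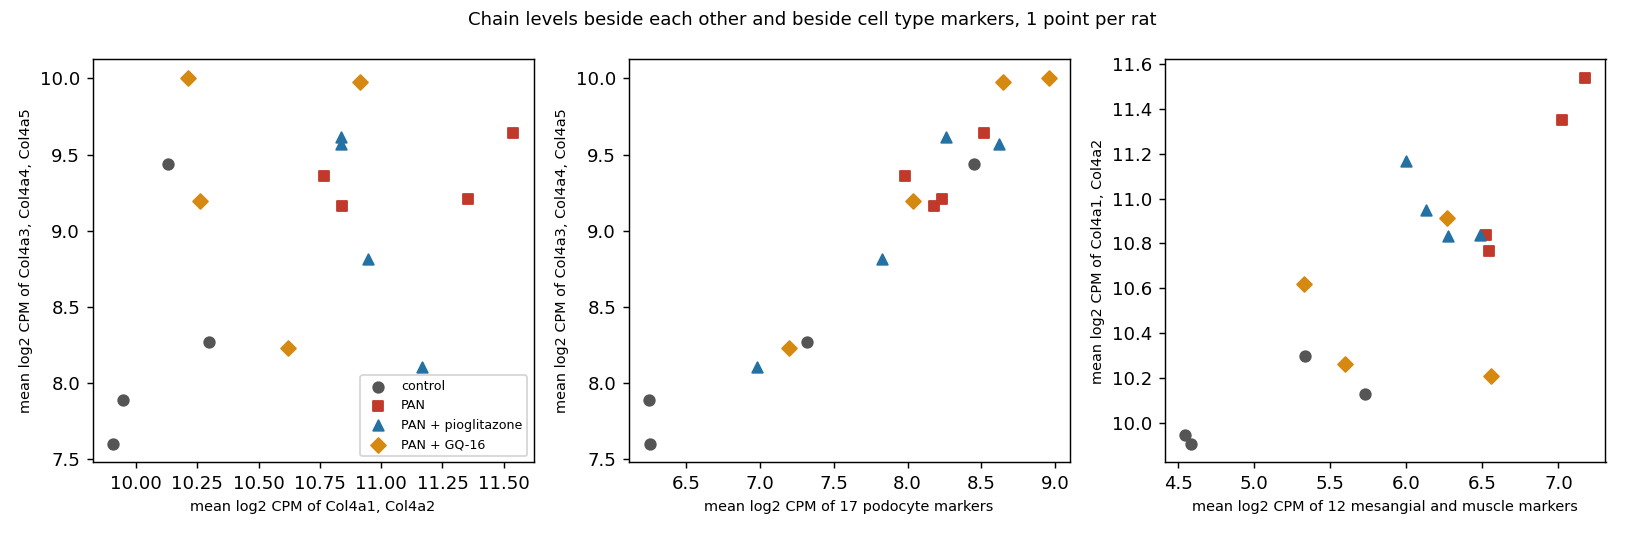
Each point is 1 of 16 rats. Left, mean log2 CPM of Col4a3, Col4a4 and Col4a5 against that of Col4a1 and Col4a2; middle, the mature chains against the mean of 17 podocyte markers; right, Col4a1 and Col4a2 against the mean of 12 mesangial and smooth muscle markers. The middle panel is the tightest, and in the left panel the groups overlap on the vertical axis while all PAN rats lie to the right of all controls.

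The genes most like each chain over the 16 rats were found from the correlation of log2(CPM + 1) after median-ratio scaling, a description in which group and cell content are shared by all points. For Col4a1 the gene ranked first of 13221 was Col4a2 (Pearson r 0.988, Spearman rho 0.965), followed by Adam12 (r 0.941), Tfdp1 (r 0.936) and Trim47 (r 0.928). For Col4a2 the next were Tfdp1, Trim47 and Csk (r 0.927 to 0.940). For Col4a4 the first was Col4a3 (r 0.975, rho 0.953), followed by Iqgap2 (r 0.974), Akt2 (r 0.960) and Pja1 (r 0.959). Pja1, a ubiquitin ligase gene, was also the nearest to Col4a5 (r 0.988), ahead of Akt2 (r 0.978) and Arhgap24 (r 0.973).

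For Col4a3 the nearest was an unnamed locus, LOC100911572 (r 0.986), then Col4a4, a second unnamed locus, LOC108348294 (r 0.970), and Npnt (r 0.969), which encodes nephronectin, a basement membrane ligand. Whether the unnamed loci share sequence with Col4a3 was not examined. Col4a6 was least like any other gene, with r of 0.830 for Arhgap32, 0.817 for Rhbdl3 and 0.815 for Nrbp2. Between the 2 networks, Col4a1 and Col4a3 had r of 0.022 after median-ratio scaling and 0.381 as deposited.

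Genes that make, export, join, bind and remove collagen IV were read from the same fit in PAN against control. Of the 71 genes measured in 7 lists, 32 were called higher, 20 after median-ratio scaling and 9 with library number as covariate, where 21.7%, 7.12% and 2.88% of all genes were. The 26 genes described were taken in part for their small adjusted p, so the number called among them, 22, is no result. With library number 9 of these calls held, namely Fkbp10, Loxl1, Loxl2, Mmp2, Mmp14, Timp2, Nid1, Tinagl1 and Tgfb3. The 13 others did not pass (limma adjusted p 0.0819 to 0.374). With the podocyte score as covariate 15 held, and the 7 that did not were Ddr2, Itgb1, Frem2, Lamb2, Sec24d, Sparc and Timp1. Of 17 measured genes for folding and modification of procollagen 12 were called higher, and 6 after median-ratio scaling, where 21.7% and 7.12% of all genes were and 0.522% were called lower. Serpinh1, the collagen chaperone HSP47, was at 426 ± 75.0 CPM in healthy rats and 754 ± 143 CPM after PAN (SD, n = 4). Its log2 change was 0.82 (limma adjusted p 0.00658). Fkbp10, a prolyl isomerase of the endoplasmic reticulum, changed by 1.62, and P3h3 and P3h4, of the prolyl 3-hydroxylase family, by 1.42 and 1.43, and all 4 were also called after median-ratio scaling. With library number as covariate, Fkbp10 alone of the 17 was called, and P3h3, P3h4 and Serpinh1 had a limma adjusted p of 0.0819, 0.107 and 0.129. Of 12 genes for export of procollagen from the endoplasmic reticulum, 1 was called, Sec24d, a coat protein gene, with a log2 change of 0.52, which was not called after median-ratio scaling (0.22, limma adjusted p 0.198) or without control rat 2 or 3 or PAN rat 1 or 2 (limma adjusted p 0.0546 to 0.0690).

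Of 7 measured genes for crosslinking and assembly 5 were called higher, 3 after median-ratio scaling and 2 with library number as covariate, where 21.7%, 7.12% and 2.88% of all genes were. Loxl2, a lysyl oxidase-like enzyme, rose from 5.48 ± 2.08 to 37.7 ± 25.8 CPM (SD, n = 4), and its mean difference on the log2(CPM + 1) scale was 2.42 (limma adjusted p 0.000815). Loxl1 and Loxl3 rose by 1.77 and 1.47, though Loxl3 did not pass with library number as covariate (limma adjusted p 0.112). Sparc, a collagen-binding matricellular protein, rose by 1.25, and by 0.95 after median-ratio scaling, where it did not pass (limma adjusted p 0.0506), nor did it without control rat 2 or 3 or PAN rat 1 or 2 (limma adjusted p 0.0579 to 0.0980). Pxdn, the peroxidase that forms the sulfilimine bond between trimers, was at 249 ± 33.6 CPM in control and 310 ± 65.7 CPM in PAN, with a log2 change of 0.30 that did not pass (limma adjusted p 0.218) and of -0.01 after median-ratio scaling.

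Among 4 measured receptors 2 were called higher under both scalings, where 21.7% and 7.12% of all genes were. Ddr2, a discoidin domain receptor kinase, changed by 1.68 and Itgb1, the β1 integrin subunit, by 1.09. Neither call held with library number as covariate (limma adjusted p 0.241 and 0.256) or with the podocyte score, where the changes were 0.69 and 0.50 (limma adjusted p 0.135 and 0.0847). Neither held without control rat 2 or 3, and that of Itgb1 did not hold without PAN rat 1 (limma adjusted p 0.0589 to 0.0779). Itga1, the integrin subunit that pairs with β1 to bind collagen IV, was at 78.7 ± 5.48 CPM in control and 85.6 ± 16.9 CPM in PAN and did not pass (log2 change 0.10, and -0.20 after median-ratio scaling).

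Of 6 genes for type IV collagenases and their inhibitors 4 were called higher under both scalings, and 3 with library number as covariate, where 21.7%, 7.12% and 2.88% of all genes were. Mmp2, gelatinase A, rose by 1.27 and Mmp14, the membrane protease that activates it, by 1.43. The inhibitor Timp2 rose by 1.96, from 76.0 ± 37.8 to 283 ± 88.6 CPM, and Timp1 by 1.18, though Timp1 did not pass with library number as covariate (limma adjusted p 0.261) or without control rat 2 or 3 or PAN rat 1 (limma adjusted p 0.0547 to 0.0786). Mmp9 and Timp3, chosen after their values were seen, had log2 changes of 0.31 and 0.16 and did not pass.

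Of 16 other measured glomerular basement membrane genes 5 were called higher, and 2 after median-ratio scaling, namely Nid1 and Tinagl1, where 21.7% and 7.12% of all genes were called. Nid1, nidogen 1, which links laminin to collagen IV, rose by 1.68 and Tinagl1 by 1.45. Lamb2, the β2 chain of the mature laminin of this membrane, rose by 0.70 (limma adjusted p 0.0286) and its partner Lama5 had a change of 0.37 that did not pass (limma adjusted p 0.103). Frem2 rose by 1.07, and neither it nor Lamb2 was called after median-ratio scaling or without control rat 2 or 3 or PAN rat 2. Lamb2 was also not called without PAN rat 1 or 3. Without PAN rat 4 Lama5 was called, with a log2 change of 0.50 (limma adjusted p 0.0403).

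Of 9 measured regulators 3 were called higher under both scalings, and 1, Tgfbr2, a TGF-β receptor, was called lower after median-ratio scaling only (log2 change -0.82, and -0.52 as deposited). Among all genes 21.7% were called higher as deposited and 7.12% after that scaling, with 1.51% lower. Tgfb1 and Tgfb3, both ligands of the TGF-β family, rose by 0.80 and 2.21, and Ccn2, a matricellular gene induced by TGF-β, by 2.39, which did not pass without control rat 2 or 3 (limma adjusted p 0.0562 and 0.0534). With library number as covariate Tgfb1 and Ccn2 were not called (limma adjusted p 0.134 and 0.172) and Tgfb3 was. With the podocyte score the change of Ccn2 was 1.03 and still passed (limma adjusted p 0.0195). Lmx1b, a podocyte transcription factor of the Col4a3 and Col4a4 genes, was at 32.6 ± 32.1 CPM in control and 70.2 ± 8.11 CPM in PAN and did not pass (log2 change 1.52, limma adjusted p 0.0600). Without control rat 1 its change was 2.09 (limma adjusted p 0.00730), as for the mature chains. 

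The same 71 genes were read for the drugs. Against PAN, 0 of 71 were called by limma with either drug. At an unadjusted p under 0.05, 15 were lower and 0 higher with GQ-16, and 2 were lower and 0 higher with pioglitazone, where 8.27% and 3.74% of all genes had such a p in either direction. The smallest of these with GQ-16 were those of Loxl2 (log2 difference -1.59, limma adjusted p 0.295), Tgfb3 (-1.23, limma adjusted p 0.298) and Itga1 (-0.71, limma adjusted p 0.304). Between the drugs 8 were lower and 0 higher with GQ-16 at such a p, where 5.94% of all genes had one, and 0 were called by limma (smallest adjusted p 0.724).

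**Figure D5:**
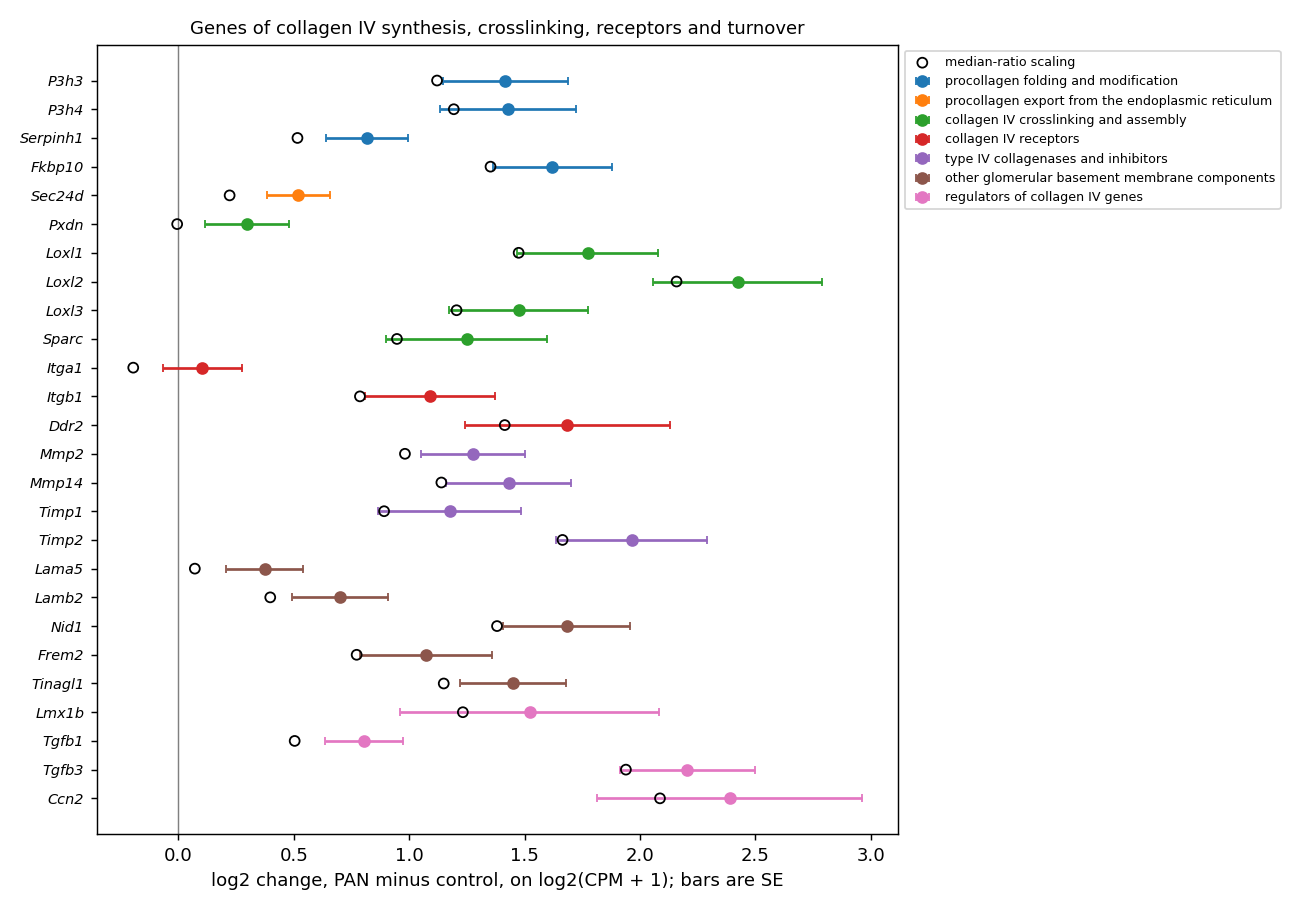
Log2 change between PAN and control of the named genes of 7 lists, coloured by list, with the standard error (n = 4 rats a group) and the value after median-ratio scaling as open points. Most points lie between 0.5 and 2.5, and Pxdn, Itga1 and Lama5 lie nearest to 0.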

How the data were processed

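Poly(A) RNA of glomeruli from 16 rats was sequenced from stranded libraries, per the labels' protocols. The deposited table holds log2 values of CPM, that is, counts scaled to a common library total, to which the authors' processing had added 0.5 read per count and 1 per library total, as the values themselves show. The submitters' processing notes name HISAT2, featureCounts, Subread and limma and the build Rnor_6.0, without roles or order; the annotation version is not given in the sources used here. Undoing the log gave whole reads for 100% of values (tolerance 0.05). Genes of low abundance are not in the table: each gene in it had 2 CPM or more in 8 or more libraries.

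CPM was 2 to the power of the deposited value. The test was limma (version 3.58.1, R version 4.3.3) applied to log2(CPM + 1), in 1 fit of 4 group means to all rats with a variance trend, followed by Benjamini-Hochberg adjustment across the 13222 genes. Tests were two-sided, and called means an adjusted p under 0.05. The fit was tested on simulated data. P-values measure the spread between these rats. The network ratio and other ratios use the deposited log2 values and carry no test. Alternatives were median-ratio scaling and voom with it, quantile normalization, pseudocounts of 0.1 or none, library number or podocyte score as covariate, only the groups compared, a mean of at least 10 CPM, other forms of the ratio, and leaving out each rat. The library number covariate was 25 or more against under 25. Libraries numbered under 25 alone, and library number with median-ratio scaling, were added after seeing the data.

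The chains, the pathway and marker lists and the naming rule were chosen with earlier results of these data known. Named pathway genes are up to 4 per list and direction with the smallest adjusted p, plus Serpinh1, Pxdn, Lmx1b, Itga1, Lamb2 and Lama5. Listed genes that are not in the table were not analysed here. Promoter windows for all 6 chains come from RefSeq on GRCr8.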

Additional observations from a re-analysis of the deposited data

Results flagged for a closer look

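Within groups of 4 rats, 84 sets of values of chains, ratios and marker scores were examined for a rat far from the others by Dixon's test. Of these 3 were found, where about 4.2 are expected by chance. Col4a5 in PAN rat 1 was at 8.55 in log2 CPM, against 7.71 to 7.85 in the other 3 PAN rats. The same rat had a log2 ratio of Col4a3 to Col4a5 of 1.07, against 1.65 to 1.70, and both rest on its Col4a5 level. In rat 4 on pioglitazone, Col4a6 minus the mean of the parietal epithelial markers was -0.52 in log2 CPM, against -1.63 to -1.53 in the other rats of the group. The causes were not tested.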

How the results depend on the processing

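No paired analysis was possible because the labels give no replicate numbers or pairing. Depth limited Col4a6 most, at 73 to 239 reads per library. PAN against control gave 2 chains called under every alternative that kept all rats, except 0 with library number as covariate and median-ratio scaling together, and 2 to 5 when 1 rat was left out. Pioglitazone against control gave 0 chains under median-ratio scaling, voom, quantile normalization, libraries numbered under 25, or library number with median-ratio scaling, 1 with the podocyte score, and 0 to 2 when 1 rat was left out. GQ-16 against control gave 0 to 2 when 1 rat was left out. The 3 comparisons between injured groups gave 0 throughout. Group differences in the network ratio moved by less than the pooled SD of the 2 groups compared under every alternative. The causes of these changes were not tested.

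Changes of sign were confined to values that did not pass a test. For Col4a6, PAN against control was -0.15 under median-ratio scaling, -0.23 under quantile normalization, -0.33 with library number, -0.58 with the podocyte score, -0.15 under voom and -0.51 with library number and median-ratio scaling. Its pioglitazone against control values under the same settings were -0.056, -0.056, -0.012, -0.37, -0.10 and -0.17, and -0.041 for libraries under 25. With the podocyte score, Col4a5 was -0.081 for PAN against control, Col4a4 and Col4a5 were -0.067 and -0.13 for pioglitazone against control, Col4a4 and Col4a6 were -0.070 and -0.35 for GQ-16 against control, and Col4a4 was -0.0027 for GQ-16 against pioglitazone. For pioglitazone against PAN, Col4a3 was 0.035 with library number, 0.058 with the podocyte score and 0.056 with library number and median-ratio scaling, where Col4a5 was 0.0030. For GQ-16 against PAN, Col4a4 was 0.040 with library number and 0.10 with median-ratio scaling added. For PAN against control, Pxdn was -0.0050, -0.020, -0.016 and -0.13 under median-ratio scaling, quantile normalization, voom and library number with median-ratio scaling, Itga1 was -0.20, -0.18 and -0.19 under the first 3, and Lama5 was -0.052 under the last.

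When 1 rat was left out, values that changed sign in at least 1 case ran as follows. Col4a6 ran from -0.15 to 0.30 for PAN against control, from -0.15 to 0.29 for pioglitazone against PAN, from -0.041 to 0.40 for pioglitazone against control and from -0.073 to 0.37 for GQ-16 against pioglitazone. For pioglitazone against PAN, Col4a2 ran from -0.25 to 0.0055 and Col4a3 from -0.47 to 0.089. For GQ-16 against PAN, Col4a3 ran from -0.17 to 0.45, Col4a4 from -0.37 to 0.19 and Col4a5 from -0.10 to 0.49. For GQ-16 against pioglitazone, Col4a3 ran from -0.014 to 0.69 and Col4a4 from -0.051 to 0.58. Itga1 ran from -0.025 to 0.15 for PAN against control. The difference in network ratio ran from -0.35 to 0.19 for PAN against control, from -0.24 to 0.37 for pioglitazone against PAN and from -0.23 to 0.38 for pioglitazone against control. With all rats kept, other forms of that ratio gave -0.036 to 0.24 for PAN against control. Of 372 chain values under alternatives other than leaving out 1 rat, libraries numbered under 25 included, 334 kept their direction and side of the threshold, 13 lost a call and 25 changed sign. Of 259 such values of the named pathway genes 202 kept both, 49 lost a call and 8 changed sign. Of the 22 calls among those genes, 13 were lost with library number, 14 with library number and median-ratio scaling, 7 with the podocyte score, 5 under voom, 4 each under median-ratio scaling and quantile normalization, and 2 with only the groups compared.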
